A study of Mus musculus with 3 samples.

Results

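The nuclear-encoded subunits of oxidative phosphorylation were examined in T-helper 1 cells of the mouse, a subset of CD4 T cells known for the regulator Tbx21 and the cytokine Ifng. Members were taken by gene symbol: protein-coding genes outside the mitochondrial genome named as complex I (Nduf), II (Sdh), III (Uqcr, Cyc1), IV (Cox4 to Cox8) or V (Atp5) subunits, without pseudogenes. This gave 85 members of 50600 annotated genes, with 37 in complex I, 4 in complex II, 9 in complex III, 18 in complex IV and 17 in complex V. Another 10 genes with matching symbols are annotated as processed pseudogenes and were left out. A few members are placed by name and not by structure: Ndufa4, named for complex I, is now regarded as a complex IV subunit, Cox7a2l is a supercomplex assembly factor, and Atp5s is a coupling factor B protein.

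RNA was sequenced from primary cells of mouse strain C57BL/6NJ, made by a differentiation protocol for CD4 T cells, in 1 group of 3 biological replicates. They carry separate biosample records and 1 shared donor record, so the spread between libraries may be partly technical. Sex was not collected and age is unknown; no treatment, genotype or second condition is given, and a tag of 16 hr in the headers of the files has no match in the labels. With 1 group, members were compared with each other and with the 21751 coding genes outside the mitochondrial genome, within each library.

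Complexes I to IV form the respiratory chain of the inner mitochondrial membrane, which passes electrons from NADH and succinate to oxygen and pumps protons; complex V, the ATP synthase, uses the proton gradient to make ATP. Most subunits are encoded in the nucleus and assembled with a small set encoded by mitochondrial DNA. Several complex IV subunits, and the complex V c subunit, are encoded by more than one gene, and some of the alternative genes are known as isoforms of heart and skeletal muscle, testis or lung. Activated T cells are known to raise both glycolysis and respiration, and T-helper 1 effector cells to rely strongly on glycolysis.

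Replicates 1, 2 and 3 held 4764598, 2568928 and 2815439 counts on genes, of which members held 35142, 16491 and 13569. Levels are given as TPM, that is counts per gene length scaled to a fixed total in each library; 1 TPM was worth 2.25, 1.28 and 1.59 counts on a gene of 1 kilobase. A gene was called detected at 1 TPM or more in every library and not detected under 1 TPM in every library; errors are SD over the 3 libraries unless stated. All 11 T cell markers were detected (summed level 1084 to 1961 TPM), while only 1 of 6 T-helper 1 markers was: Il12rb2, whose exons overlap an opposite-strand gene. Tbx21 had 2, 10 and 2 counts in replicates 1, 2 and 3, Ifng had 1, 0 and 0, and Ccl5 had 0 in every library. The defining T-helper 1 markers were thus at or near 0 as counted, subject to the strand limit given next. Of other lineages, none of 5 neutrophil, 8 striated muscle and 6 testis markers was detected. The detected markers of other lineages were Cd8b1, Ighm, Csf1r, Cd68 and Alas2, out of 6 CD8 and NK cell, 6 B cell, 6 macrophage and 5 erythroid genes. Their mean levels were 17.4, 78.5, 124, 2.59 and 7.67 TPM in that order. Exons of Csf1r and Alas2 also overlap an opposite-strand gene.

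A fact of the counting bears on every level above and below. Counts were made on 1 strand, and some members hold far fewer counts than an opposite-strand gene that overlaps them, while others hold far more. Whether reads were assigned to the opposite strand was not tested, so levels hold only as counted. Members with exons clear of every opposite-strand gene, 62 of 85, are therefore also given in TPM recomputed over clear genes alone (clear TPM), a scale on which values are several-fold larger. That scale removes overlap and would not correct counts made on the wrong strand. Replicate 3 also stands apart: overlapped coding genes kept 22.2%, 21.6% and 21.3% of TPM in replicates 1, 2 and 3, while clear coding genes held 28.2%, 24.1% and 15.3%.

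Nearly all members were detected. Of 85 members 78 were detected, against 39.8% of coding genes, and 73 reached 5 TPM in every library, against 26.4%. At least 5 counts were present in every library for 76 members, against 41.3% of coding genes. The median over all members was 87.1, 62.8 and 43.7 TPM in replicates 1, 2 and 3. Over the coding genes that were detected, the median was 16.8, 15.2 and 9.70 TPM. Members together held 0.907%, 0.747% and 0.476% of TPM, a share of 0.710% ± 0.218 that was lowest in replicate 3. Over clear genes the 62 clear members held 2.23%, 1.96% and 1.89% of clear TPM, or 2.03% ± 0.178, so the libraries lay closer together on that scale. Detection among clear members was 56 of 62 in clear TPM, against 37.4% of clear coding genes.

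**Figure D1:**
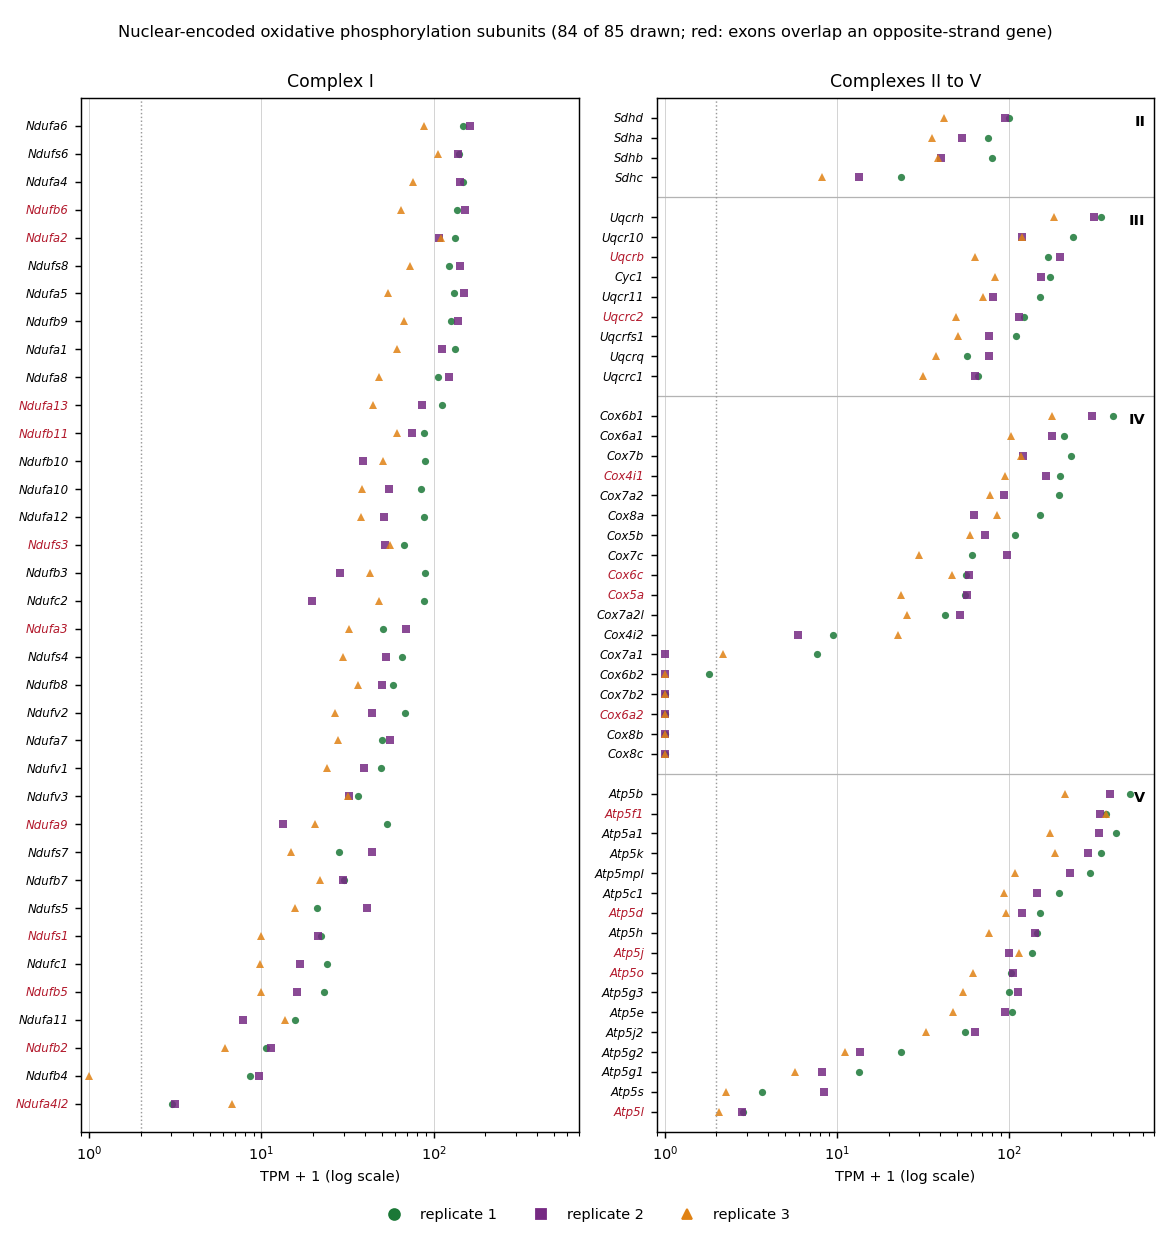
Level of 84 of the 85 members, as TPM + 1 on a log axis, in complex I (left panel) and complexes II to V (right panel), 1 symbol for each of replicates 1, 2 and 3. The dotted line marks 1 TPM, and red names mark the 22 drawn members whose exons overlap an opposite-strand gene. The triangles of replicate 3 lie left of the other 2 symbols for most genes, and a tail of complex IV genes sits at 0.

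The complexes had medians of the same order. Over detected members the median was 54.4 TPM ± 19.3 for 36 complex I genes, 53.0 ± 21.2 for 4 complex II genes, 109 ± 44.3 for 9 complex III genes, 92.8 ± 32.1 for 12 complex IV genes and 107 ± 29.7 for 17 complex V genes. These spreads overlap between complexes and include a shift shared by them, since all were lowest in replicate 3. Within every library the medians of complexes III, IV and V over detected members exceeded those of complexes I and II. In replicate 1 they were 151, 129 and 134 TPM, against 75.2 and 76.7 TPM. In replicate 2 they were 113, 81.7 and 112 TPM, against 50.8 and 46.0 TPM. In replicate 3 they were 62.5, 67.7 and 75.6 TPM, against 37.2 and 36.2 TPM. This order was not tested, and for complex IV it depends on leaving out members that were not detected. Over all 18 complex IV genes the median was 54.8, 57.0 and 26.8 TPM in replicates 1, 2 and 3. Over all 37 complex I genes it was 67.1, 50.5 and 36.8 TPM, and over the 4 complex II genes 76.7, 46.0 and 36.2 TPM. Differences between complex medians were smaller than the range within each of complexes I, III, IV and V. Within complex I the highest detected member stood 40.0 times above the lowest, within complex II 5.56 times, within complex III 5.25 times, within complex IV 25.3 times and within complex V 231 times.

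Complex I, the NADH dehydrogenase, has a redox core that holds the flavin and iron-sulfur clusters and a larger set of accessory subunits. Per length of the exon union its 2 most abundant members were accessory: Ndufa6 (mm10 chr15:82350139-82354291, minus strand) had 148, 161 and 87.6 TPM and Ndufs6 had 140, 137 and 105 TPM in replicates 1, 2 and 3. Both means, 132 ± 39.2 and 127 ± 19.5 TPM, differed by less than their spread. By transcript length, a scale explained with complex V, Ndufa4 (385 TPM) and Ndufb8 (310 TPM) stood above Ndufs6 (224 TPM) and Ndufa6 (177 TPM). Among the NADH-oxidising core, Ndufv1, which binds the flavin and NADH, had 36.7 TPM ± 12.8, Ndufv2 had 45.3 ± 20.7, and Ndufs1, the large iron-sulfur subunit, had 16.8 ± 6.85. In the quinone-reducing core, Ndufs8 had 112 ± 36.0 TPM, Ndufs3 had 57.6 ± 7.92 and Ndufs7 had 28.1 ± 14.5.

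The low end of complex I was mixed. Ndufa4l2, a paralog of Ndufa4 known as a target of hypoxia signalling, had 2.03, 2.15 and 5.74 TPM from 5, 3 and 10 counts; the opposite-strand gene Shmt2, which its exons overlap by 32 bases, had 1236, 467 and 457 counts. Ndufb4 had 7.58 and 8.71 TPM in replicates 1 and 2, from 20 and 13 counts, and 0 counts in replicate 3. That 0 allows up to 1.61 TPM, so replicate 3 lies below both other libraries beyond its counting limit; 40.2% of the Ndufb4 transcript is matched by near-identical copies elsewhere, so its count is uncertain. Ndufc2, an accessory subunit of the membrane arm, had the largest spread of any detected member, with 87.1, 18.7 and 47.5 TPM from 148, 18 and 57 counts (SD 1.09 on the log2(TPM + 1) scale). Ndufa9, which binds NADPH beside the core, followed with 52.6, 12.3 and 19.5 TPM (SD 1.03). In both genes replicate 1 was highest and replicate 2 lowest, unlike most members.

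Complex II, succinate dehydrogenase, has 4 subunits and no mitochondrially encoded one. Sdha, the flavoprotein, had 75.05, 52.7 and 34.8 TPM, and Sdhb, the iron-sulfur subunit, had 78.4, 39.2 and 37.6 TPM. Of the membrane anchors, Sdhd had 99.4, 94.3 and 40.9 TPM and Sdhc had 22.5, 12.5 and 7.16 TPM. Sdhc was lowest of the 4 in every library, and Sdhd exceeded it by 5.88-fold ± 1.56 within libraries. All 4 genes were clear of opposite-strand exons.

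Complex III, the cytochrome bc1 complex, was led by small subunits. Uqcrh, the hinge protein beside cytochrome c1 (mm10 chr4:116066965-116075071, minus strand), had 343, 309 and 181 TPM and Uqcr10 had 234, 118 and 118 TPM. The redox subunits Cyc1 (cytochrome c1) and Uqcrfs1 (Rieske iron-sulfur protein) had 135 TPM ± 47.1 and 78.2 ± 30.0; Cyc1 was higher in every library, by 1.75-fold ± 0.230. Uqcrc1, a core protein, was the lowest member per length of the exon union with 65.0, 62.8 and 30.9 TPM, and Uqcrh exceeded it by 5.36-fold ± 0.472 within libraries. By transcript length Uqcrq was lower, with 95.4 TPM, against 185 TPM for Uqcrc1. These ratios varied less between libraries than the levels of Uqcrh, Uqcrc1, Cyc1 and Uqcrfs1, which were all lowest in replicate 3.

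Complex V held the 3 most abundant members per length of the exon union. Atp5b, the catalytic beta subunit (mm10 chr10:128083273-128090391, plus strand), had 502, 384 and 212 TPM and Atp5a1, the alpha subunit, had 420, 332 and 173 TPM. Within libraries the beta gene exceeded the alpha gene by 1.19-fold ± 0.0334, and by 2.07-fold in the means by transcript length. The central stalk genes were lower: Atp5c1 (gamma) had 144 TPM ± 50.9, Atp5d (delta) 121 ± 27.3 and Atp5e (epsilon) 81.0 ± 30.6. Atp5b exceeded Atp5c1 by 2.50-fold ± 0.192 per length of the exon union, and Atp5a1 exceeded Atp5c1 by 2.11-fold ± 0.214. Alpha and beta subunits are each present in several copies per enzyme and the stalk subunits in a single copy.

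Of the peripheral stalk, Atp5f1, subunit b, ranked second of all members with 365, 336 and 363 TPM, a level that differed from that of Atp5b by less than the spread. It was the steadiest detected member, with an SD of 0.07 on the log2(TPM + 1) scale, and its exons overlap an opposite-strand gene. Near-identical copies match 43.4% of the Atp5f1 transcript, so its count is uncertain. The other stalk genes were Atp5h (subunit d, 121 TPM ± 39.0), Atp5j (factor 6, 115 ± 18.1) and Atp5o (the oligomycin-sensitivity protein, 89.0 ± 24.3). Among small membrane subunits, Atp5k (subunit e) had 271 TPM ± 79.8 and Atp5mpl 209 ± 95.3, while Atp5l (subunit g) was the lowest detected member of all, with 1.86, 1.83 and 1.07 TPM. Atp5s had 2.69, 7.39 and 1.27 TPM from 9, 14 and 3 counts.

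Atp5l illustrates the effect of gene length on these levels. The deposited length is the union of all annotated exons, 6443 bases for Atp5l, or 11.8 times its longest coding transcript. Dividing by transcript length instead, and scaling over coding genes, put Atp5l at 26.5 TPM. In all, 13 detected members had an exon union at least 3 times their transcript. Their median was 44.4 TPM against 79.1 for the other 65 by exon union, but 242 against 149 by transcript length, so the order of the 2 groups turned round. Ranks among members shifted likewise: Atp5j was 23rd by exon union and 4th by transcript length, and Ndufb7, an accessory complex I subunit, 65th and 20th. Atp5f1 and Atp5b changed places at the top, with 1323 and 1125 TPM by transcript length. Uqcrh was 3rd on that scale with 882 TPM, and Atp5a1 was 6th with 544 TPM. The transcript-length scale was chosen after the data were seen. How many of all coding genes have so long an exon union was not counted.

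**Figure D2:**
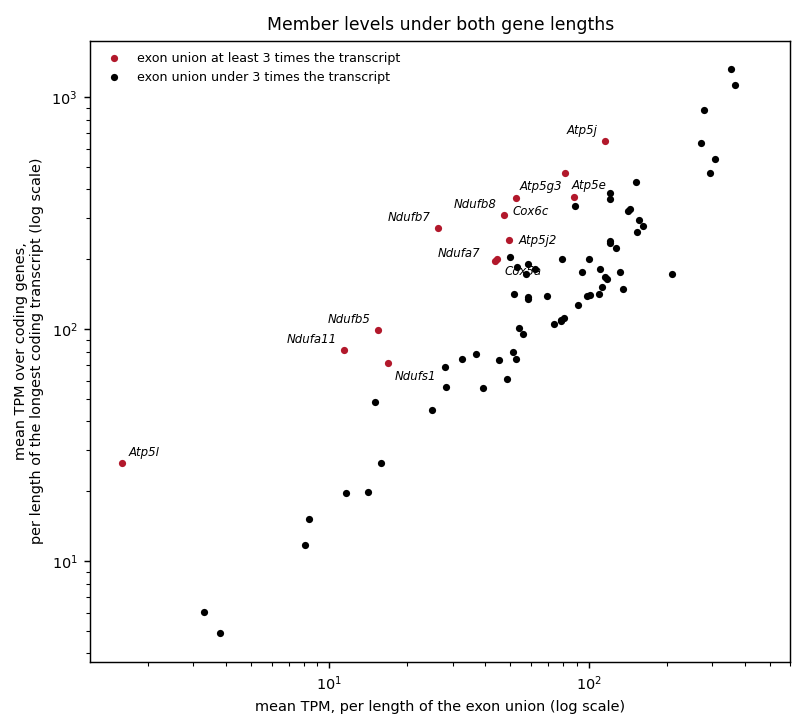
Mean level of the 78 detected members over 3 libraries, per length of the exon union (TPM over all genes, horizontal) and per length of the longest coding transcript (TPM over coding genes, vertical), both on log axes. The 13 named members in red, whose exon union is at least 3 times the transcript, lie along or above the upper edge of the band formed by the other 65.

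The c-ring of the ATP synthase is encoded by Atp5g1, Atp5g2 and Atp5g3, which give the same mature protein with different import peptides. Atp5g3 had 98.6, 112 and 53.1 TPM, Atp5g2 had 22.5, 12.6 and 10.1 TPM and Atp5g1 had 12.4, 7.18 and 4.74 TPM. The order per length was thus the same in every library. In counts Atp5g1 stood above Atp5g2, with 137, 45 and 37 against 85, 27 and 27. Its lower level, and so its share, rests on its length of 4912 bases against 1675. The longest coding transcript of Atp5g1 is also long, with 4715 bases. Of the summed level Atp5g3 made up 79.0% ± 5.58, Atp5g2 13.8% ± 3.76 and Atp5g1 7.23% ± 1.92; by transcript length Atp5g3 made up 85.8% ± 4.09. Near-identical copies match 88.2% of the Atp5g2 transcript, 13.2% of the Atp5g1 transcript and none of the Atp5g3 transcript, so the Atp5g2 share is uncertain.

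Complex IV, cytochrome c oxidase, was led by Cox6b1, which faces cytochrome c (mm10 chr7:30616861-30626151, minus strand), with 403, 303 and 178 TPM. Cox6a1 followed with 208, 178 and 101 TPM. The other subunits with a single gene were Cox5a (44.4 TPM ± 19.0), Cox5b (79.1 ± 25.3), Cox6c (52.8 ± 6.41) and Cox7c (62.0 ± 34.1). Cox7a2l, the supercomplex factor for which C57BL/6 mice are known to carry a shortened form, had 41.4, 51.3 and 24.7 TPM.

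All tissue isoforms of complex IV lay below their ubiquitous counterparts in every library. Cox8a, the common subunit 8, had 151, 61.9 and 84.2 TPM from 185, 43 and 73 counts, against 0 counts of Cox8b, the isoform of rodent heart and skeletal muscle, and 0 counts of Cox8c, the testis isoform. With 3 counts taken as the limit that a 0 allows in each library, Cox8a was at least 40.7-fold, 9.47-fold and 16.1-fold higher than Cox8b in replicates 1, 2 and 3, and at least 53.9-fold, 12.5-fold and 21.3-fold higher than Cox8c. Because these genes are short, the 0 counts allow up to 3.70, 6.53 and 5.24 TPM of Cox8b, so a level of a few TPM was not detectable at this depth. Cox6a1 exceeded the muscle isoform Cox6a2, at 0 counts, by at least 106-fold, 51.3-fold and 36.5-fold. Cox7b, with 227, 120 and 116 TPM, exceeded the testis isoform Cox7b2, at 0 counts, by at least 92.4-fold, 27.7-fold and 33.3-fold. In all, 5 members were not detected, against 51.1% of coding genes, and 4 of them had 0 counts in every library, against 41.4%.

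The remaining pairs had counts of both genes. Cox6b1 had 644, 274 and 200 counts, and the testis isoform Cox6b2 had 2, 0 and 0, a ratio per length of 875 over the pooled libraries (exact 95% interval 242 to 7233, counting error only). Cox7a2 had 415, 111 and 115 counts, against 8, 0 and 1 for the heart and muscle isoform Cox7a1, a ratio of 40.4 (21.1 to 88.7). Ndufa4 had 456, 250 and 165 counts, against 5, 3 and 10 for Ndufa4l2, a ratio of 38.4 (24.1 to 65.0). That ratio was 72.3, 66.1 and 13.1 in replicates 1, 2 and 3, so replicate 3 stood below the others; the mean log2 ratio was 5.31, and 6.11 without replicate 3. Cox4i1 had 693, 323 and 231 counts, against 15, 5 and 27 for Cox4i2, the isoform known from lung and hypoxic cells, a ratio of 13.5 (10.1 to 18.5). For this pair and for Ndufa4 and Ndufa4l2, the ratio of every single library lay outside the pooled interval, which leaves out the spread between libraries.

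Cox4i2 and Ndufa4l2 were the alternative isoforms of these pairs detected in every library. Cox4i2 had 8.44, 4.97 and 21.6 TPM, and both genes were highest in replicate 3, where most members were lowest. The ratio of Cox4i1 to Cox4i2 was 23.5, 32.8 and 4.35 in replicates 1, 2 and 3, with a mean log2 ratio of 3.90, and of 4.796 without replicate 3. Cox4i1 overlaps an opposite-strand gene while Cox4i2 does not. Beside these values, 5 of 8 striated muscle markers (Acta1, Actc1, Mb, Myh6 and Myh7) had 0 counts in every library, and the summed level of the list was 1.37, 1.31 and 4.40 TPM. Of the testis markers, Tnp1 and Pgk2 had 0 counts and the summed level was 5.22, 0 and 12.5 TPM. Both sums were highest in replicate 3, as were Cox4i2 and Ndufa4l2, but each rested there mostly on few counts of a single gene. Ckm, whose exons overlap an opposite-strand gene, had 6, 0 and 15 counts in replicates 1, 2 and 3 (3.24 TPM in replicate 3). Prm1 had 5, 0 and 8 counts (10.7 TPM in replicate 3). Any part of those lineages in the isoform levels was not tested.

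Over 8 isoform pairs the ubiquitous gene was higher in 3 of 3 libraries each, with a median log2 ratio of 5.20 when each 0 is set to 3 counts. A two-sided exact sign-flip test over 3 libraries cannot give a p under 0.25, and each pair reached that value (0.25 after Benjamini-Hochberg adjustment over 8 pairs). Cox7a2, Cox7a2l and Cox7a1 made up 73.1% ± 8.12, 25.6% ± 9.45 and 1.29% ± 1.37 of their summed level.

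**Figure D3:**
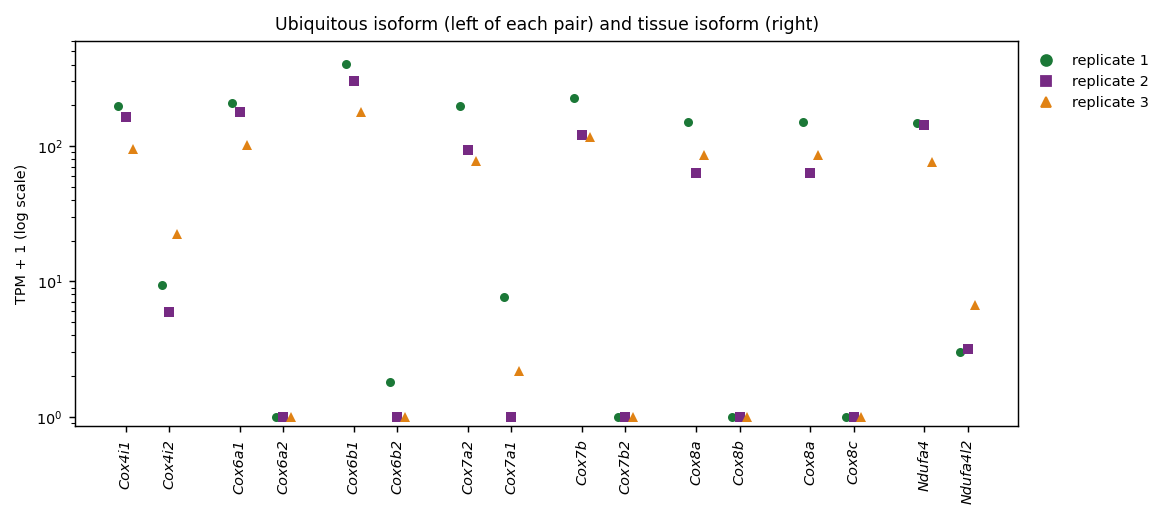
Level of each isoform pair as TPM + 1 on a log axis, ubiquitous gene left and alternative or tissue gene right, 1 symbol for each of replicates 1, 2 and 3; Cox8a is drawn beside both Cox8b and Cox8c. Cox6a2, Cox7b2, Cox8b and Cox8c sit at 0 in all 3 libraries, and Cox4i2 is highest in replicate 3.

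Promoter windows of RefSeq (GRCm38.p6, 250 bases before to 50 after the annotated start) were found for 68 members, 66 by symbol and 2 by an older symbol. The windows of the subunit 8 and subunit 6b pairs are shown because each pair sets an abundant gene beside a gene with 0 to 2 counts. Each reads 5′ to 3′ on the gene's strand, with every CG dinucleotide in capitals. They lie on the minus strand at chr19:7217567-7217866 (Cox8a), chr7:140900397-140900696 (Cox8b), chr7:30626065-30626364 (Cox6b1) and chr7:4753045-4753344 (Cox6b2).
Cox8a: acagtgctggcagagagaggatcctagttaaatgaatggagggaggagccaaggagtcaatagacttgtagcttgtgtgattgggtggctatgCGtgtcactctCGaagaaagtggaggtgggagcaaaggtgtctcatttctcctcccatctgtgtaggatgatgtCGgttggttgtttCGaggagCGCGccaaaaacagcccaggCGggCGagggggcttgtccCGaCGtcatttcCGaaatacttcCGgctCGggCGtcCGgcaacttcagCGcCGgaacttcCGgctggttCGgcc
Cox8b: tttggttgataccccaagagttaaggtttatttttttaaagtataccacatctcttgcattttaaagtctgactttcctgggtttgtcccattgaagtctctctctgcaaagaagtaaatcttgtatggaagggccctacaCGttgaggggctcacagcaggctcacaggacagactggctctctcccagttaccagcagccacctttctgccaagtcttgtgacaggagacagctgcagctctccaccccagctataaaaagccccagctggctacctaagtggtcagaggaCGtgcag
Cox6b1: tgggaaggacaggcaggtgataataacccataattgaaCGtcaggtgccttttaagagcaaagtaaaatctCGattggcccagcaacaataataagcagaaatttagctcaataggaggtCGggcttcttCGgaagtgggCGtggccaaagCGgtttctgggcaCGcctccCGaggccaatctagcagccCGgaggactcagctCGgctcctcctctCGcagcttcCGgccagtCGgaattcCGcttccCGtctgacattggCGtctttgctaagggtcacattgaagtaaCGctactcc
Cox6b2: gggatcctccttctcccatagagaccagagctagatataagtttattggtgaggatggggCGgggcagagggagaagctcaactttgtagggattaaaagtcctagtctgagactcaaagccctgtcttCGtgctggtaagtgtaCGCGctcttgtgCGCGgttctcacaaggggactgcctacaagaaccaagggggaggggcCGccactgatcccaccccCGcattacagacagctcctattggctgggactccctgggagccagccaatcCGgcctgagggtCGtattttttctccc

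The Cox8a window held 19 CG dinucleotides and the Cox8b window 2; the Cox6b1 window held 17 and the Cox6b2 window 10. Over the 63 detected members with a window the count ran from 5 to 43 with a median of 19, against a median of 14 over 16469 coding genes. The 5 members with a window that were not detected in every library had 2 (Cox8b), 7 (Cox7a1), 10 (Cox6b2), 10 (Cox7b2) and 23 (Ndufb4). The 2 sets overlap, since Cox7b, at 154 TPM, had 5.

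Exact matches to the motifs of factors known to regulate respiratory genes were counted on both strands. The NRF1 core motif GCATGCG was in 10 of 68 member windows (14.7%), against 3.58% of all 32851 windows. The ETS-factor motif CCGGAAG, a GABP type of site, was in 15 (22.1%), against 8.86%, with Atp5k, Cox6a1, Cox6b1, Cox8a and Uqcrh among them. The YY1 core motif GATGGCG was in 9 (13.2%), against 3.49%. Of these 9, the complex I genes were Ndufa7, Ndufa9, Ndufc1, Ndufs4, Ndufs6 and Ndufs7, and the undetected Cox7b2 was another. The ERR motif TCAAGGTCA was in 2, Atp5g3 and Sdhd (2.94%), against 0.423%. Over 16469 coding genes the shares were 4.66% for NRF1, 12.3% for ETS, 4.68% for YY1 and 0.340% for ERR. These are matches of letters, and no binding was measured. Atp5k, Atp5l, Cox6a1, Sdhb and Uqcr11 held both the NRF1 and the ETS motif, and of these Atp5k and Cox6a1 were the most abundant. Their windows are shown with both motifs in capitals (the NRF1 matches on the 2 strands overlap), on the minus strand at chr5:115348909-115349208 (Cox6a1) and chr5:108434350-108434649 (Atp5k).
Cox6a1: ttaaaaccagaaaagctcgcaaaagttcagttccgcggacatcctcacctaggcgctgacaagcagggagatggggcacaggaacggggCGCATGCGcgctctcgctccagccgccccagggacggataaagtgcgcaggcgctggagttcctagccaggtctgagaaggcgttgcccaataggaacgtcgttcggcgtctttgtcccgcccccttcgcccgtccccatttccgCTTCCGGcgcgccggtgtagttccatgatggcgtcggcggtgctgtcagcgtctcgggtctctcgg
Atp5k: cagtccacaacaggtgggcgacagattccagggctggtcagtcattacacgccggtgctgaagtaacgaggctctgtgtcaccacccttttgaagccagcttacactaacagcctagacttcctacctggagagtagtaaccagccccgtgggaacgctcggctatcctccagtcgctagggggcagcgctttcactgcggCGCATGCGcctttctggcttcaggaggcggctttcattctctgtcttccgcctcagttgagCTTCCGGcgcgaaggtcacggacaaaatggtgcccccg

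Exons of 23 members overlapped exons of an opposite-strand gene, against 22.1% of coding genes, in all 27 pairs of member and partner. Large differences lay on pairs in both directions. Cox5a had 258, 151 and 75 counts, against 5874, 4814 and 4807 for Gm26631, a noncoding gene that overlaps it by 269 bases. Ndufb5, an accessory complex I subunit, had 250, 96 and 71 counts, against 3710, 2127 and 2971 for the mitochondrial ribosomal protein gene Mrpl47 (616 bases). Uqcrc2, the second core protein of complex III, had 698, 368 and 196 counts, against 3364, 2497 and 2678 for Pdzd9 (504 bases). In each of these pairs the member was lower per length than its partner in every library, and its ratio to the partner was lowest in replicate 3.

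Ndufb6, of the complex I membrane arm, had 203, 128 and 67 counts, against 2759, 2585 and 1956 for Smim27 (257 bases). Ndufa9 had 249, 33 and 65 counts, against 1580, 862 and 1236 for the antisense gene 1700018A23Rik (67 bases). Ndufs1 had 387, 210 and 115 counts, against 1632, 1115 and 1340 for Ino80dos (489 bases). Atp5l had 27, 15 and 11 counts, against 424, 188 and 329 for the antisense gene Gm30934 (133 bases). Ndufb2 had 123, 74 and 46 counts, against 1269, 366 and 985 for the antisense gene Gm16272 (156 bases).

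Other members stood above or near their partner per length. Atp5f1 had 3377, 1762 and 2370 counts, against 305, 145 and 60 for Wdr77 (337 bases), so its steady level went with a partner that was lowest in replicate 3. Atp5d had 651, 289 and 293 counts, against 403, 259 and 341 for Cbarp (68 bases), and was higher per length in every library. Cox6c had 444, 262 and 258 counts, against 233, 165 and 88 for Vps13b (250 bases). Ndufa2 had 170, 78 and 99 counts, against 33, 23 and 14 for Tmco6 (60 bases). Atp5j had 949, 393 and 565 counts, against 1158, 367 and 1019 for Gabpa, a subunit of the GABP regulator of respiratory genes (397 bases); per length Atp5j was 1.49, 1.95 and 1.01 times Gabpa. Cox4i1 had 693, 323 and 231 counts, against 2870, 1286 and 2259 for Emc8 (154 bases), and per length 0.981, 1.02 and 0.415 times the level of that gene.

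Where both genes of a member's longest overlap had counts in every library, 21 pairs, the member was lower per length in 12, 11 and 12 pairs in replicates 1, 2 and 3 and in all 3 libraries in 11. The median ratio of member to partner was 0.647, 0.841 and 0.415, lowest in replicate 3. The member's ratio was lower in replicate 3 than in replicate 1 in 15 pairs and than in replicate 2 in 14. The choice of partner mattered for Atp5o and Ndufb2. Atp5o stood above Gm15976 (356 bases), but at 0.228, 0.273 and 0.104 times D430001F17Rik (350 bases) per length. Ndufb2 stood below Gm16272 (156 bases), but at 1.97, 3.65 and 2.18 times Braf (146 bases). Against 8 noncoding partners with counts the member was lower per length in every library in 6 pairs and higher in 2; against 17 coding partners it was lower in 7 and higher in 9. The same counts were not made over all overlapped coding genes, so they cannot be read as particular to the members. Whether the overlap altered either gene's count was not tested.

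**Figure D4:**
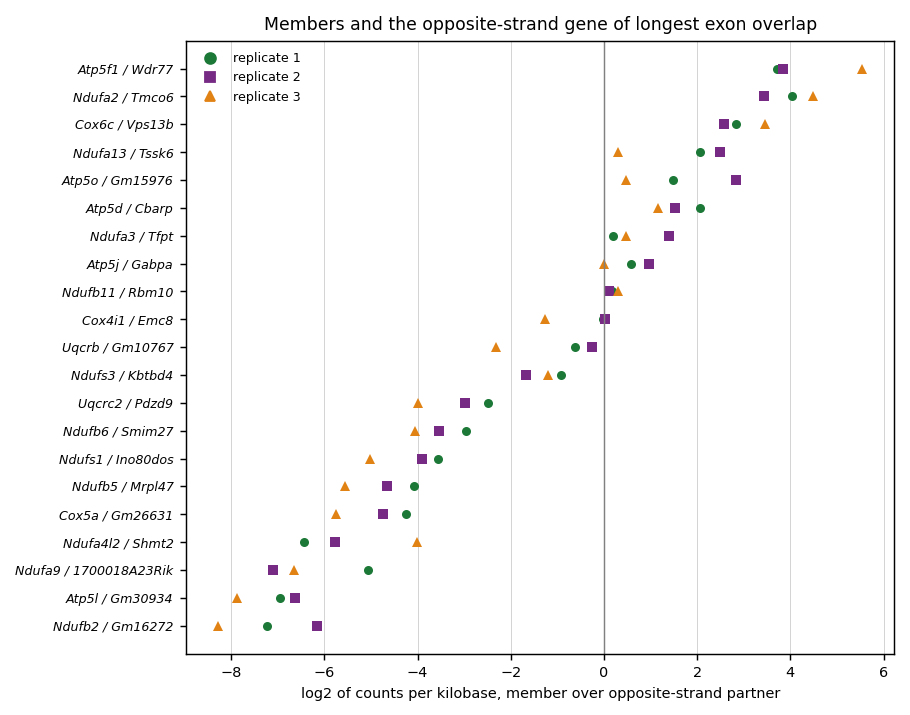
Log2 of counts per kilobase of the member over its opposite-strand partner of longest exon overlap, for 21 pairs with counts of both genes, 1 symbol for each of replicates 1, 2 and 3. Points left of 0 have the member below its partner; 11 pairs lie left of 0 in all libraries, and the triangles of replicate 3 are furthest left in many of them.

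Overlapped members had a median of 86.9, 68.8 and 45.5 TPM, against 87.3, 62.1 and 39.3 for clear members, a difference of 0.116 ± 0.110 on the log2(TPM + 1) scale that was near 0 in replicate 1. Among detected members the difference was -0.02 ± 0.02, against 0.60 ± 0.20 for detected coding genes. Whether the members differ from coding genes in this was not tested.

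Replicate 3 was the lowest library for most members in TPM. Among 80 members with a mean of at least 1 TPM it was lowest in 66 (82.5%), against 67.5% of coding genes. Whether these shares differ was not tested. Among 22 overlapped members of that level it was lowest in 16, against 54.4%. Among the 58 clear ones it was lowest in 50, against 74.8%, in TPM, and in 27, against 41.0%, in clear TPM. The median deviation of detected members from their own mean was 0.40, 0.14 and -0.57 in replicates 1, 2 and 3 on the log2(TPM + 1) scale, and 0.14, -0.04 and -0.11 for clear members in clear TPM. The median SD of detected members was 0.57 in TPM, against 0.50 for detected coding genes, and 0.25 for clear members in clear TPM, against 0.31 for clear detected coding genes. On the clear scale the spread of members was thus no larger than that of coding genes. These sets differ in level, with medians of 273 and 47.1 clear TPM, and spread was not compared at matched level. Coding genes as a whole held 51.6%, 46.7% and 37.3% of TPM in replicates 1, 2 and 3, so the shift of replicate 3 was not limited to members. Its cause was not tested. With bulk RNA, fewer cells of a type and less RNA per cell also cannot be told apart in such shifts.

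Cox4i2 had the largest spread in clear TPM (54.9 ± 56.6, SD 1.42 on the log2 scale), followed among detected clear members by Ndufc2 (204 ± 119, SD 1.17). Atp5k (1048 ± 44.9) and Uqcrh (1067 ± 51.5) were the steadiest in clear TPM, with SDs of 0.06 and 0.07, against 0.46 and 0.49 in TPM. Uqcrb, of complex III, was among the most variable overlapped members, with 168, 196 and 62.5 TPM, while its overlapping partner Gm10767 had 1333, 676 and 1131 counts. Between libraries, log2 levels of the 78 detected members correlated with Pearson's r of 0.932 (replicates 1 and 2), 0.952 (1 and 3) and 0.898 (2 and 3), as a description over genes of shared libraries.

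**Figure D5:**
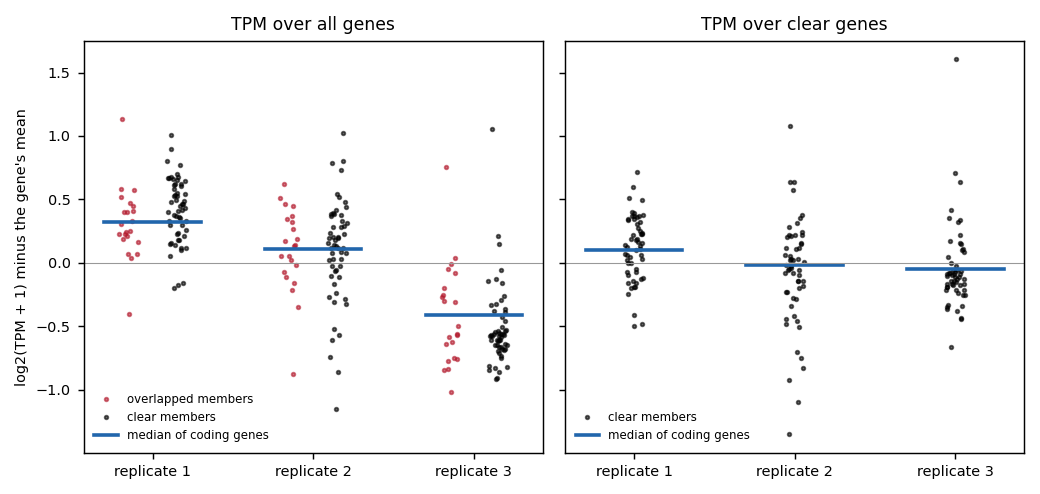
Deviation of each detected member from its own mean over 3 libraries, in log2(TPM + 1), by library, in TPM over all genes (left) and over clear genes alone (right). Red points are overlapped members, black points clear members, and blue bars medians of coding genes (left) or clear coding genes (right) with a mean of at least 1 TPM. On the left, members lie low in replicate 3 with medians of -0.53 (overlapped) and -0.58 (clear), where the coding gene median is -0.41. Taken apart (not drawn), overlapped coding genes have a median of -0.23 and clear ones of -0.47. On the right all medians lie within 0.14 of 0.

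Copies elsewhere in the genome touched some members. Of the 78 detected members, 18 have part of the transcript matched at 97% identity or more over at least 75 bases by another gene's transcript, and 8 over at least 50% of its length: Atp5g2, Atp5h, Atp5l, Atp5o, Cox7c, Ndufa12, Ndufs3 and Uqcrb. These 8 had a median of 65.7 TPM ± 17.1, against 69.7 ± 23.0 for the 60 with no copy. The search was run for members only, so no share of coding genes stands beside these counts. Levels of the 8 remain uncertain gene by gene, and the file headers show no option for counting reads that map to several places.

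Genes that work with the subunits were mostly expressed at lower levels. Of 18 genes of electron carriers and coenzyme Q synthesis 15 were detected. Cycs, somatic cytochrome c, had 107, 64.5 and 46.0 TPM, and Cyct, its testis form, had 0 counts. Coq4 was next with 41.9 TPM ± 3.01, and Coq8a lay under 1 TPM in every library. Ndufab1, the mitochondrial acyl carrier protein that is also a complex I subunit but falls outside the symbol pattern, had 15.5, 16.1 and 6.85 TPM.

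Assembly factors were detected for every complex. For complex I 12 of 14 were, led by Ndufaf3 (97.8 TPM ± 2.57, overlapped) and Ndufaf2 (90.02 ± 12.7, clear); for complex II 2 of 4, Sdhaf1 and Sdhaf2; for complex III 5 of 6, led by Uqcc2 (92.2 ± 36.8) and Ttc19 (37.0 ± 6.49). For complex IV 18 of 19 were detected, and the 2 highest, Cox20 (847 ± 225) and Surf1 (316 ± 68.6), both overlap an opposite-strand gene. Cox20 exceeded every nuclear-encoded complex IV subunit in mean level and Surf1 differed from Cox6b1, the highest of them, by less than the spread. For complex V all 4 were detected, led by the inhibitor Atpif1 (25.6 ± 3.32) and Atpaf2 (22.6 ± 8.003).

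Of 13 regulators 12 were detected. Myc had 251, 202 and 159 TPM and Gabpa, overlapped by Atp5j, 90.3, 50.6 and 113 TPM. Ppargc1a, the coactivator known from muscle and brown fat, had 0 counts in every library; its relatives Ppargc1b and Pprc1 had 2.59 TPM ± 1.11 and 45.1 ± 13.1.

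The mitochondrially encoded subunits showed a split pattern. Of 13 genes 7 were detected, and mt-Nd3, mt-Nd4l, mt-Co2, mt-Co3, mt-Atp6 and mt-Atp8 had 0 counts in every library; every respiring cell uses these genes, so each is only listed at 0 here. The highest was mt-Nd6, the only one of them encoded on the light strand, with 15033, 21391 and 23335 TPM, against 2348, 2076 and 953 TPM for mt-Co1, the next highest by mean. Nuclear and mitochondrial subunits of one complex were therefore not compared in level. Whether reads of the mitochondrial genes were assigned to the opposite strand was not tested either.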

How the data were processed

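Total RNA was sequenced from 3 T-helper 1 samples; per the labels' protocols the library protocol is named for poly(A) RNA. Each deposited file holds raw counts for every gene. Read pairs were counted on exons of the GENCODE vM13 annotation (mm10) by featureCounts v1.4.6-p4, set to strand 1, per the file headers. Neither the kit nor the aligner's version is given in the sources used here.

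The gene length deposited beside each count was used to compute TPM, and clear TPM over genes with no exon inside an opposite-strand gene. GENCODE vM21 gave names to 50376 of the 50600 identifiers. Every member may be named. Values in every library are given for the 2 highest of each complex, isoform and c-ring genes, members not detected in every library, the 5 of largest SD and overlapped members with large counts. The members and lists were chosen with earlier results of these data known. The markers and pathway lists are hand-written. The result of 1 member is not reported here.

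Detection was set at 1 TPM, the pseudocount at 1 and the limit of a 0 at 3 counts. Intervals are exact at 95%; they and the limits cover counting error only. A member's copies were searched with BLAST 2.17.0 among GENCODE vM21 transcripts. TMM scaling came from edgeR 4.0.16 and size factors from DESeq2 1.42.0, with no test between groups. The computations were tested on simulated data. Other software was R 4.3.3 and Python 3.11.15 with matplotlib 3.10.9, SciPy 1.17.1, pandas 2.3.3 and numpy 2.4.6. Alternatives were other thresholds, pseudocounts, scalings and lengths, and each replicate left out.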

Additional observations from a re-analysis of the deposited data

How the results depend on the processing

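No comparison between groups, paired or not, was possible because there was 1 group. Isoform and subunit ratios were taken within libraries. The count of detected members, 78 of 85, ran from 73 to 79 of 85 under the alternatives that kept all members and was 56 of 62 over clear genes. The median level of 64.5 TPM became 239 over clear genes, 140 over coding genes and 144 by transcript length (an alternative chosen after the data were seen), and ran from 53.2 to 74.9 with 1 replicate left out. The share of TPM of 0.710% became 2.03% over clear genes, 1.55% over coding genes and 1.73% by transcript length, and ran from 0.612% to 0.827% with 1 replicate left out. These are other denominators and lengths, so the values move by construction. The median SD over all 85 members, 0.56 on the log2(TPM + 1) scale, became 0.34 with TMM scaling, 0.31 with DESeq2 size factors, 0.25 over clear genes, and 0.24 over clear genes without replicate 3, the last chosen after the data were seen; it was 0.22 without replicate 3, 0.73 without replicate 2 and 0.54 without replicate 1. The median log2 ratio of isoform pairs, 5.20, became 5.99 with a limit of 1 count and ran from 4.90 to 5.27 with 1 replicate left out. Of 40 values of single pairs under alternatives, 35 moved by less than the SD and none reversed. The difference between overlapped and clear members, 0.116, became 0.0034 by transcript length, whose cause was not tested, and ran from 0.070 to 0.177 with 1 replicate left out. Depth limits the genes at 0 counts most, since a 0 allows several TPM for the shortest of them.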
